A study of Homo sapiens with 5 samples.

Results

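The comparison described here sets TF-1 cells stimulated with Steel factor (SF) against TF-1 cells stimulated with GM-CSF, across all genes of the array. TF-1 is an established human erythroleukaemia line that is maintained in GM-CSF and serves as a model of erythroid progenitors. Both cell samples carried the empty retroviral vector MSCV-GFP, were deprived of growth factor overnight and were then stimulated for 6 h, with SF at 20 ng/mL or with GM-CSF at 5 ng/mL. Each condition was read on 1 array, so there were no replicates, no test was possible and no p-value is given. The labels do not say whether the vector cells were a pool or a clone, and no array of unstimulated cells was analysed here, so a gene that is higher under SF cannot be told apart from one that is lower under GM-CSF. The members were the probe sets that the platform annotation assigns to a single gene symbol, which were 19065 of 22283 probe sets and represented 11963 genes. The other 3 arrays of the series, mutant SCL (DbSCL, a form of the transcription factor SCL that cannot bind DNA) under SF, vector cells under Epo and mutant SCL cells under Epo, are used only to show signals side by side.

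SF is the ligand of c-Kit, a receptor tyrosine kinase. Binding dimerises the receptor, which then signals through PI3K and AKT, through RAS and ERK, and through SRC family kinases, and this signal is needed for the survival and expansion of early erythroid progenitors. The GM-CSF receptor has no kinase of its own. It joins a ligand-binding alpha chain to a common beta chain that it shares with the receptors of IL-3 and IL-5, and it signals mainly through JAK2 and STAT5.

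Values are log2 signals as deposited, so a difference of 1 is 2-fold and a difference of 0.58 is 1.5-fold. Weak signals carry little information, so a floor of 4.45, the 40th percentile of all values, replaced every value under it, and a difference against a value below the floor is a lower bound. At least 1 probe set was above the floor on the SF or the GM-CSF array for 8557 genes, of which 2494 had 2 or more such probe sets and 6063 had 1. The other 3406 genes were below the floor on both arrays and were not compared. Probe sets of a gene read the same RNA and can overlap, so they are not replicates. Their standard deviation (SD) is used as the spread of the measurement. Pooled over the 2494 genes it was 0.26, and the median per gene was 0.17.

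Lineage markers were checked against the floor. A marker passed when a probe set was above it on the SF or the GM-CSF array. MPO and MS4A1 passed on the GM-CSF array only. All 6 erythroid markers with a probe set used here (HBD, EPOR, GATA1, KLF1, TAL1 and NFE2) and all 4 progenitor markers (CD34, KIT, GATA2 and MYB) were above the floor. Markers of other lineages passed too: 4 of 4 mast cell, 4 of 4 lymphoid, 3 of 4 megakaryocyte, 3 of 6 granulocyte and monocyte and 2 of 3 endothelial markers, so the floor does not single out the erythroid label. Their brightest probe sets had medians of 6.09 (mast cell), 5.68 (lymphoid), 5.46 (megakaryocyte), 3.97 (granulocyte and monocyte) and 5.15 (endothelial) under SF, against 5.92, 6.02, 5.58, 4.20 and 4.89 under GM-CSF. The erythroid median was 8.04 under SF and 7.64 under GM-CSF. CDH5, CD14, CSF1R, ELANE and VWF were the markers below the floor on both arrays. KIT, the receptor of SF, had signals of 7.04 under SF and 6.79 under GM-CSF. The 3 probe sets of KITLG, the gene of SF itself, lay between 2.23 and 2.82 on both arrays. CSF2RA, the GM-CSF receptor alpha chain, was close to the floor at 4.66 under SF and 4.82 under GM-CSF, with its other 3 probe sets below it.

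The arrays differed in their controls. The hybridization controls averaged 10.02 on the SF array and 10.53 on the GM-CSF array. The 18S ribosomal RNA probe sets averaged 8.22 and 9.02 on the same arrays. For beta-actin the 3' minus 5' signal was 1.89 on the SF array and 2.63 on the GM-CSF array, and for GAPDH it was 1.58 and 2.19. The part of these differences in the results below was not tested.

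Most genes differed little between SF and GM-CSF. Over the 8557 genes the difference, taken per gene as the mean of its probe sets above the floor, had a median of 0.00, a 5th percentile of -0.41 and a 95th percentile of 0.60. The larger differences were mostly in 1 direction. SF exceeded GM-CSF by 1.5-fold or more in 465 genes (5.43%), and 79 genes (0.923%) were lower by as much. At 2-fold, 31 genes (0.362%) were higher and 0 were lower. Of the genes counted at 1.5-fold, 85.5% were thus higher. This share was 96.0% with each array centred on its median and 74.5% after quantile normalization.

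The differences depended on signal. In 10 bins of mean signal, the median difference was -0.08 in the lowest bin, -0.12 in the second and 0.25 in the highest, which covers signals of 7.82 to 13.08. The share of genes 1.5-fold or more higher was 3.50% in the second bin, 10.0% in the ninth and 8.53% in the highest. The dimmest genes therefore leaned towards GM-CSF and the bright ones towards SF, and a gene group is given below beside the median of the bin that holds its median signal.

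**Figure D1:**
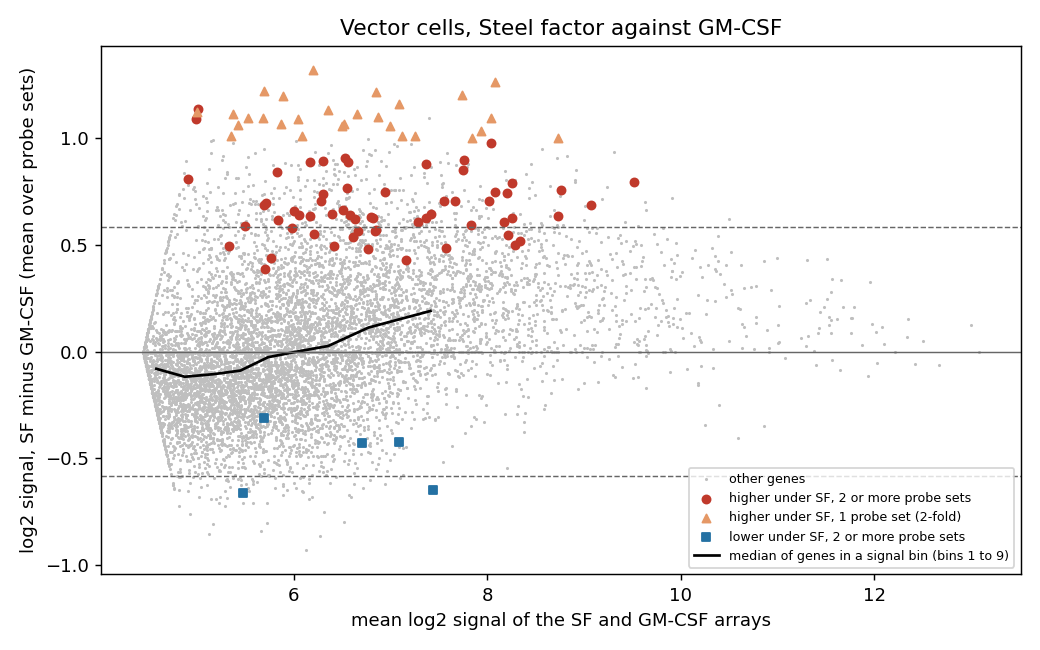
Log2 signal difference, SF minus GM-CSF, of 8557 genes (mean over probe sets above the floor) against their mean log2 signal on the 2 arrays. Dashed lines mark 1.5-fold and the black line joins the medians of signal bins 1 to 9, which lie between -0.12 and 0.19. The 61 red circles and 5 blue squares are genes counted from 2 or more probe sets, and the 28 triangles are genes with 1 probe set at 2-fold.

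Genes supported by several probe sets give the firmest values. Such a gene was counted when at least 2 of its probe sets differed by 1.5-fold or more in the same direction and none did so in the other. By this rule 61 of 2494 genes (2.45%) were higher under SF and 5 (0.2%) were lower. At 2-fold in 2 probe sets, 0 genes were higher (0%) and 0 were lower (0%). A single probe set was a poor guide: 47 of these genes had a probe set at least 2-fold higher, but only 16 of them had a second one at 1.5-fold, and in 9 another probe set was below 0. In 28 of the 61 genes every probe set above the floor reached 1.5-fold. The rule itself required this of the 26 that had only 2 probe sets above the floor. In 2 genes, NR3C1 and PTPRC, a probe set was below 0. The rule's threshold ran through a continuum, since the second-highest probe set of the last gene inside it gave 0.586 and that of the next gene 0.583.

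The upstream sequences of the 3 higher genes that lead by their weakest probe set and are in the promoter table, and of the 2 lower genes whose probe sets all reached 1.5-fold, are shown because these genes lead their direction by the rule. Each run holds the 250 bases before the start of the gene, 5' to 3' on the gene's strand, from RefSeq, build GRCh38.p14. Capitals mark matches to the E-box CAGNTG, to GATAA and to CCAAT on either strand.
SUCLG2, minus strand, chr3:67654613-67654862: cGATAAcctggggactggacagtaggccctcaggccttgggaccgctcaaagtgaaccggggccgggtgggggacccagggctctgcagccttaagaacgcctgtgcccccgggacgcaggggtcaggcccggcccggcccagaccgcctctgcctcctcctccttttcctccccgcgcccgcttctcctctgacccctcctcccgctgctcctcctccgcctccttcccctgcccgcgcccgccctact
SLC38A2, minus strand, chr12:46372774-46373023: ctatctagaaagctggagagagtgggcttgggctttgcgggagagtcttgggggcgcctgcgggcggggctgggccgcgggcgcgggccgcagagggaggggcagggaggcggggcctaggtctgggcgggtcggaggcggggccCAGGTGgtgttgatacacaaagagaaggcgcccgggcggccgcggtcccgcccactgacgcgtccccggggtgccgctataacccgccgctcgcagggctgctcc
WAPL, minus strand, chr10:86521793-86522042: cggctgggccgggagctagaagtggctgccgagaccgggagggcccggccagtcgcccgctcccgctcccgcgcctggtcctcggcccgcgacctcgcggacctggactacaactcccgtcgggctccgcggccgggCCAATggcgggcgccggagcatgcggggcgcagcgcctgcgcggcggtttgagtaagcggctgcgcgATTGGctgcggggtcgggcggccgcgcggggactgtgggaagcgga
BAIAP3, plus strand, chr16:1333395-1333644: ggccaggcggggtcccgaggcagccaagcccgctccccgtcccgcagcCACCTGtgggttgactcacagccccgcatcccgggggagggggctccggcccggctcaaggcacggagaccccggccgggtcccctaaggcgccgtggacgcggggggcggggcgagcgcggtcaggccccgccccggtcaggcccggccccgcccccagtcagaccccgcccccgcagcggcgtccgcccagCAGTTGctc
PNPLA2, plus strand, chr11:818664-818913: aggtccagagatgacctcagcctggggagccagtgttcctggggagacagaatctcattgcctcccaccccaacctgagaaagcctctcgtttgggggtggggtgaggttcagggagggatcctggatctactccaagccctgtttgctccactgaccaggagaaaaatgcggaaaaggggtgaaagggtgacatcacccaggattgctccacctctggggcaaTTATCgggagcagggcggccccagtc

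SUCLG2, which encodes a subunit of succinyl-CoA ligase in the citric acid cycle, led this group. Its 2 probe sets read 5.76 and 5.41 under SF, against 4.27 and 4.27 under GM-CSF, where both were below the floor. The difference was therefore at least 1.14 ± 0.25 (SD over 2 probe sets), or at least 2.20-fold, and its other 2 probe sets were below the floor on both arrays. PRKDC, the catalytic subunit of the DNA-dependent protein kinase that joins broken DNA ends, read 5.82 and 5.26 under SF and 4.34 and 3.85 under GM-CSF, again below the floor, a difference of at least 1.09 ± 0.39. Both genes were weakly expressed, so their size rests on signals near the floor. Their probe sets passed the floor only through the SF array. Of the 61 higher genes, 7 had a probe set below the floor under GM-CSF. With signal above the floor required on both arrays, 59 genes were counted, 54 of them higher. None of the 7 genes with such a probe set, which include SUCLG2, PRKDC, ASF1A and PYROXD1, was among those 54.

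LAMP2, a structural protein of the lysosomal membrane, had 7.97 and 6.01 under SF against 7.06 and 5.10 under GM-CSF, and its probe sets agreed closely with differences of 0.90 and 0.92. SLC38A2, a sodium-coupled transporter of neutral amino acids, read 8.30 and 8.13 under SF and 7.41 and 7.23 under GM-CSF, with 0.90 in both probe sets. WAPL, which releases cohesin from chromosomes, read 6.72 and 6.52 under SF and 5.79 and 5.67 under GM-CSF. These 3 genes were each 1.86-fold to 1.88-fold higher under SF. They were chosen for their weakest probe set, so the agreement between their probe sets follows from the choice.

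Several of the counted genes encode mitochondrial proteins, a grouping made after the values were seen. The share of such genes among the 2494 was not counted, so the group is not a result about mitochondria. As a list, respiratory chain genes had 6.90% at 1.5-fold or more higher and a median of 0.23, beside 0.25 for genes of like signal. For mitochondrial ribosomal proteins these were 13.3% and 0.24, beside 0.19, or 0.11 in the bin below, as the list lay at the edge between them. Of all genes 5.43% were that much higher. TOMM20, an import receptor of the outer membrane, read 8.69 and 7.65 under SF against 7.79 and 6.85 under GM-CSF (0.85 ± 0.08, SD over 2 probe sets). UQCRC2, a core subunit of respiratory complex III, read 9.21 and 7.85 under SF against 8.57 and 6.53 under GM-CSF, and its probe sets differed in size (0.64 and 1.32). GRSF1, which binds mitochondrial RNA, gave 0.71 ± 0.05 and HIGD1A, a hypoxia-inducible protein of the inner membrane, 0.63 ± 0.01. LRPPRC, which stabilises mitochondrial messenger RNA, was also counted (0.60 and 0.89, named after its values were seen).

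RPA1, RRM1 and ASF1A act in DNA replication or chromatin assembly and were likewise put together after their values were seen. RPA1, the large subunit of the complex that coats single-stranded DNA, read 8.24 and 7.37 under SF against 7.63 and 6.22 under GM-CSF, differences of 0.61 and 1.15. RRM1, the large subunit of ribonucleotide reductase, differed by 0.61 and 0.72 in its 2 probe sets (0.66 ± 0.08). The histone chaperone ASF1A read 7.36 and 5.14 under SF against 6.37 and 4.23 under GM-CSF, where the dimmer probe set was below the floor (0.99 and at least 0.69). In all 3 genes both probe sets were brighter on the SF array, which follows from the rule that counted them.

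The remaining genes of the 20 that lead by their weakest probe set act in RNA processing, protein folding, transport and metabolism. The splicing regulator SRSF10 gave 0.77 ± 0.16 over 3 probe sets, and HEATR1, which acts in processing of ribosomal RNA precursors, gave 0.71 ± 0.07 over 2. CCT6A of the cytosolic chaperonin gave 0.79 ± 0.16, and KPNA2, an importin alpha that carries proteins into the nucleus, 0.69 ± 0.05. AMD1, which makes the aminopropyl donor for polyamines, gave 0.74 ± 0.10, the inositol transporter SLC5A3 0.69 ± 0.05 and the proton pump accessory protein ATP6AP2 0.89 ± 0.34. PYROXD1, an oxidoreductase, gave at least 0.81 ± 0.11. CD164, a sialomucin of haematopoietic progenitors, was higher by nearly the same amount in 3 probe sets (0.63, 0.64 and 0.65).

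In 2 of the 5 lower genes, BAIAP3 and PNPLA2, every probe set reached 1.5-fold, which the rule requires of a gene with 2 probe sets. BAIAP3, a protein of secretory vesicle traffic, read 5.40 and 4.89 under SF against 6.09 and 5.53 under GM-CSF (-0.66 ± 0.04, SD over 2 probe sets). PNPLA2, the lipase that starts the breakdown of stored triglycerides, read 8.90 and 5.33 under SF against 9.50 and 6.04 under GM-CSF (-0.65 ± 0.08). EIF5A, a translation factor, gave -0.93 and -0.81 in a pair of probe sets and 0.47 in the third. SFTPC, a surfactant gene of the lung with signals of only 5.00 to 6.62 here, gave -0.61 in a pair of probe sets and -0.19 to -0.02 in its other 3. TCF3, which encodes the E proteins that pair with SCL, gave -2.25 and -0.80 in 2 probe sets and -0.55 to 0.03 in the other 9 above the floor. Its extreme probe set read 7.74 on vector SF, 10.00 on vector GM-CSF, 9.62 on mutant SCL SF, 6.60 on vector Epo and 7.73 on mutant SCL Epo.

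Of the 10 probe sets at 1.5-fold in these 5 lower genes, 8 had names ending in _x_at, which marks probes that can also match other transcripts. Such probe sets made up 17.5% of all probe sets above the floor of the 2494 genes, and 12 of the 124 at 1.5-fold in the 61 higher genes. Without probe sets ending in _x_at or _s_at, 7 genes were higher and 0 lower of the 614 genes that still had 2. These 7, named after their values were seen, were ACTR3, HNRNPA3, MYH10, PSME4, PYROXD1, SLC5A3 and SRP72. PYROXD1 and SRP72 were counted only with a probe set below the floor under GM-CSF (4.31 and 4.23). It passed the floor only through the SF array. The hybridization controls averaged 10.02 on the vector SF array, 10.53 on vector GM-CSF, 10.57 on mutant SCL SF, 9.58 on vector Epo and 9.78 on mutant SCL Epo. BAIAP3 averaged 5.14, 5.81, 5.76, 5.08 and 4.88 on these arrays in the same order, and PNPLA2 averaged 7.12, 7.77, 7.72, 7.16 and 7.10. Both genes were thus highest on the vector GM-CSF and mutant SCL SF arrays, which also had the brightest controls. The part of the control difference in these values was not tested.

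**Figure D2:**
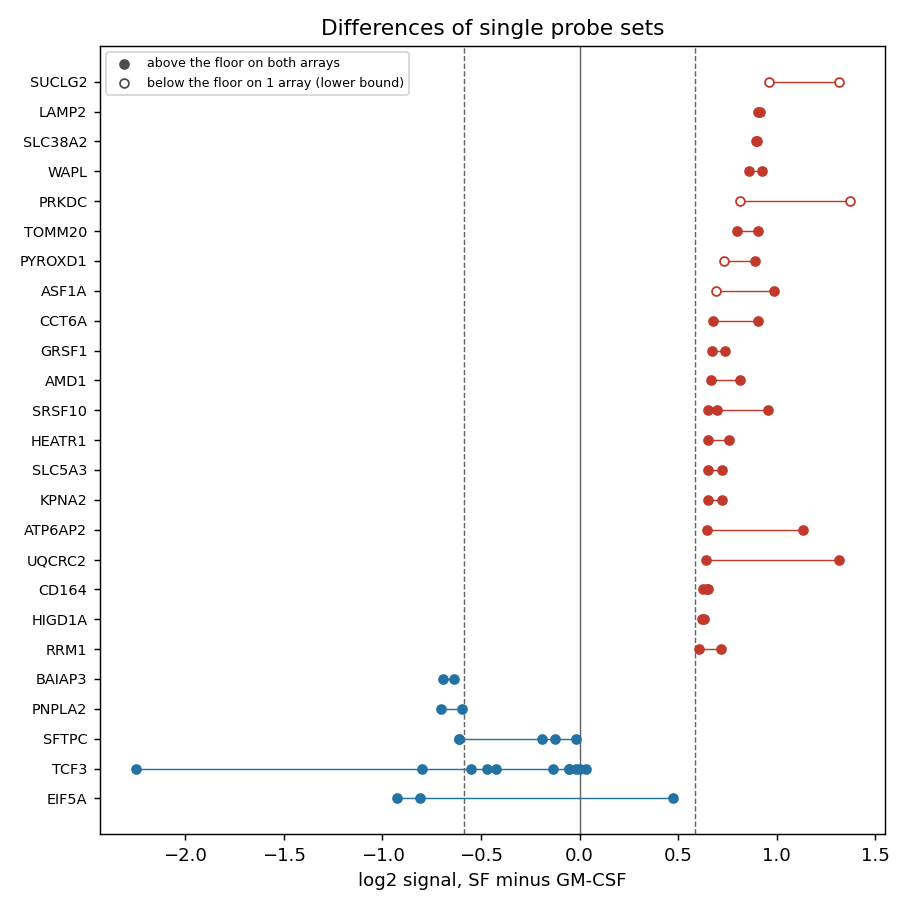
Log2 signal difference, SF minus GM-CSF, of each probe set above the floor for the 20 higher genes that lead by their weakest probe set (red) and the 5 lower genes (blue). Open circles were below the floor on the GM-CSF array and are lower bounds, and dashed lines mark 1.5-fold. The red points all lie beyond 1.5-fold because these 20 genes were chosen by their weakest probe set. Among all 61 higher genes, every probe set did so in 28. The 5 lower genes are shown without such a choice, and SFTPC, TCF3 and EIF5A have probe sets near or above 0.

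Among the 6063 genes with 1 probe set above the floor, 28 (0.462%) were at least 2-fold higher under SF and 0 (0%) were lower, the lowest value being -0.86. The last gene inside the threshold gave 1.003 and the next one outside it 0.997. These genes have no second probe set above the floor to set their value against. CDK7, the kinase of the general transcription factor TFIIH that also activates cell cycle kinases, read 6.86 under SF and 5.54 under GM-CSF, a 2.50-fold difference. SRP9 of the signal recognition particle read 8.71 under SF and 7.44 under GM-CSF (2.40-fold). The others among the first 10 were RCBTB1, ADNP, MDN1, DHX29, the zinc transporter SLC39A6, the histone acetyltransferase HAT1, the helicase RECQL and the transcription factor TCFL5, with differences of 1.12 to 1.22. RECQL was below the floor under GM-CSF, so its value is a lower bound.

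Gene groups were described by their members' counts and median, beside the 5.43% of all genes that were 1.5-fold or more higher and the all-gene median of 0.00. In the lists a gene is counted when its mean over probe sets differs by 1.5-fold or more. The lists held 1750 genes, of which 1387 were above the floor. Of 44 lists, 25 kept a median above 0 and 3 a median below 0 under all 9 other settings tried (other normalizations, floors, probe set choices and gene summaries), and the median of 16 did not keep 1 sign. Counts fell by over 1.5 times after quantile normalization in several lists: DNA replication had 3 higher in place of 7, nuclear transport 5 in place of 9, mitochondrial ribosome 3 in place of 6, endosome 4 in place of 7, lysosome 3 in place of 6, and chaperones 3 in place of 6. In the same way splicing and the proteasome had 3 each in place of 5, ribosome biogenesis 2 in place of 4, amino acid stress 1 in place of 2 and iron 0 in place of 1.

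Receptors and signalling proteins of the 2 cytokines came first. Of 16 receptor chain and JAK-STAT genes above the floor, 3 reached 1.5-fold above GM-CSF and 1 was that much lower, with a list median of 0.13. JAK1, a kinase of many cytokine receptors, read 8.46 under SF against 7.42 under GM-CSF (1.04). STAM, an adaptor that sorts ubiquitin-marked receptors in endosomes, read 7.76 under SF against 6.75 under GM-CSF (1.01). CSF2RB, the common beta chain, read 8.12 under SF against 7.25 under GM-CSF (0.87), whereas IL3RA, the alpha chain of the IL-3 receptor, read 5.58 under SF against 6.20 under GM-CSF (-0.62). The 2 receptor chains that pair with each other thus differed in opposite directions, each in 1 probe set. Of 30 c-Kit and proximal signalling genes, 1 was counted, the ERK pathway kinase MAP2K1 (8.14 under SF and 7.38 under GM-CSF), and the median was 0.01. After loess or quantile normalization 0 were counted. EPOR gave -0.05 ± 0.31 over 3 probe sets.

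Of 19 STAT5 target genes 0 reached 1.5-fold, but 12 were below 0, with a median of -0.13 where genes of like signal had 0.03. The median stayed below 0 under every setting tried, between -0.23 and -0.02. CISH, a feedback inhibitor that STAT5 induces, read 7.33 under SF and 7.43 under GM-CSF. PIM1, a survival kinase, read 8.93 under SF and 9.08 under GM-CSF, and SOCS2 read 6.11 under SF and 6.32 under GM-CSF. SOCS1, another feedback inhibitor, gave the lowest value of the list (-0.49 ± 0.09 over 2 probe sets), and MYC the highest (8.19 under SF and 7.70 under GM-CSF). Among 29 genes that ERK signalling induces early or that restrain it, 1 was counted, IER5 (5.59 under SF and 4.95 under GM-CSF), 20 were below 0, and the median was -0.08 where genes of like signal had -0.03 (-0.10 to -0.02 over the settings). DUSP6 and SPRY2, inhibitors that ERK induces, were below the floor on both arrays. Of 17 FOXO target genes, which PI3K and AKT restrain, 1 was counted, the cell cycle inhibitor CDKN1B (5.38 under SF and 4.74 under GM-CSF).

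Of 21 globin and haem genes 14 were above 0, with a median of 0.11 beside 0.03 for genes of like signal, and the median stayed between 0.03 and 0.18 under the settings tried. Of 20 erythroid membrane genes 10 were above 0, of 25 SCL complex genes 15, and of 15 iron genes 10, and the medians of these 3 lists did not keep 1 sign. Of 25 transcription factor genes of the SCL complex, GATA and related families, 3 were counted as higher. ID2, which blocks basic helix-loop-helix factors, differed by 0.92 and 0.59 in its 2 probe sets, so both reached 1.5-fold. TCF12, an E protein, read 7.08 under SF and 6.22 under GM-CSF, and the corepressor CBFA2T3 gave a difference of 0.71, each in 1 probe set. TCF3, in the same list, was lower by 2 probe sets as given above. TAL1 gave 0.22 ± 0.45 over 3 probe sets. Of 21 globin and haem genes, UROS of haem synthesis was higher by 0.86 in 1 probe set and AHSP, the alpha globin chaperone, was lower (5.02 under SF and 5.61 under GM-CSF). Of 20 erythroid membrane genes 0 reached 1.5-fold, and the nearest were CD36 (0.55 ± 0.05 over 2 probe sets) and CA1 (8.68 under SF and 8.18 under GM-CSF). NCOA4, which delivers ferritin to lysosomes, was the 1 counted of 15 iron genes (9.08 under SF and 8.49 under GM-CSF).

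Cell cycle and genome maintenance genes lay above the median of genes of like signal. Of 50 mitosis genes 44 were above 0, 8 (16.0%) reached 1.5-fold and the median was 0.33, where genes of like signal had 0.11. The leading members were the checkpoint gene MAD2L1 (7.03 under SF and 5.97 under GM-CSF), the kinetochore gene NDC80 (0.80), the spindle gene DLGAP5 (0.74) and the cytokinesis gene RACGAP1 (0.74). Of 39 DNA repair genes 7 (17.9%) reached 1.5-fold, with a median of 0.27 against -0.03 for genes of like signal. Beside PRKDC and RECQL these included the mismatch repair gene MSH6 (7.76 under SF and 6.92 under GM-CSF) and the checkpoint kinase ATR (5.96 under SF and 5.13 under GM-CSF). Of 55 DNA replication genes 7 (12.7%) did, among them RPA1, RRM1, the origin recognition subunit ORC3 (0.87), MCM10 (0.70) and CDT1 (0.68). The medians of these 3 lists stayed between 0.13 and 0.40 under every setting tried. In the list of other cyclins and kinase inhibitors, 4 of 21 were counted: CDK7, CDK8 (0.90), CCNG1 (0.79) and CDKN1B.

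Genes of transcription, RNA and nuclear transport followed. Of 52 nuclear pore and transport genes 9 (17.3%) reached 1.5-fold, with a median of 0.28 against 0.11 for genes of like signal. They included the pore proteins NUP205 (7.35 under SF and 6.46 under GM-CSF), NUP153 (0.80) and SEH1L (0.80), and the transfer RNA exporter XPOT (0.77). Of 24 TFIIH and general factor genes 4 did, CDK7, GTF2H5 (7.27 under SF and 6.27 under GM-CSF), GTF2B (0.72) and TAF7 (0.64), with a median of 0.23 beside 0.00, 0.33 after loess and 0.29 after quantile normalization. Among 46 chromatin genes 5 did, led by ADNP, HAT1 and the acetyltransferase CREBBP (6.59 under SF and 5.58 under GM-CSF), with the Polycomb subunit SUZ12 at 0.66. Of 26 DEAD and DEAH box helicases 5 did, including DHX29, which unwinds structured messenger RNA during translation, DDX39A (0.82), DHX15 (0.64 ± 0.27 over 2 probe sets) and DHX35 (0.64). Of 66 splicing genes 5 (7.58%) did, with a median of 0.19, the same as genes of like signal.

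Protein synthesis genes were close to genes of like signal or below them, apart from mitochondrial ribosomal proteins, whose reference depended on the bin. The 52 cytosolic ribosomal protein genes had a median of 0.09, where genes of like signal had 0.25, and the list median was -0.09 after loess normalization. RPLP2 was the 1 counted, with -1.66 in 1 probe set and -0.20 in the other. Translation factors had 2 of 49 counted by the mean, EIF3M (0.78 ± 0.39 over 2 probe sets) and EIF2S3 (6.93 under SF and 6.21 under GM-CSF), with a median of 0.22 beside 0.19. From 2 or more probe sets, EIF4E (0.58 ± 0.19 over 3) and EIF3A (0.57 ± 0.35 over 3) were higher and EIF5A was lower. Mitochondrial ribosomal proteins had 6 of 45 counted, led by MRPS2 (6.88 under SF and 5.90 under GM-CSF), with a median of 0.24 beside 0.19. The list's median signal of 7.01 lay at the lower edge of that bin, and the bin below had 0.11. After loess the list median was 0.17 beside 0.02 for all genes, and after quantile normalization 0.14 beside -0.02. Ribosome biogenesis genes had 4 of 43, among them MDN1 (8.34 under SF and 7.13 under GM-CSF) and HEATR1, and a median of 0.12 beside 0.19.

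Genes of protein turnover and membrane traffic followed. The 48 ubiquitin and SUMO conjugation genes had a median of 0.37, where genes of like signal had 0.03, with 42 above 0 and 6 (12.5%) at 1.5-fold, and the median was 0.30 after loess and 0.27 after quantile normalization. The ubiquitin-conjugating enzyme UBE2G1 gave 1.69 and 0.50 in 2 probe sets, the ubiquitin ligase HERC2 read 7.63 under SF and 6.62 under GM-CSF, and the cullin CUL5 and the deubiquitinase USP24 gave 0.81 and 0.67. The 41 genes of the signal recognition particle, translocon and vesicle coats had a median of 0.33 beside 0.11, with 4 counted, SRP9, SPCS1 of the signal peptidase (0.72), the translocon-associated SSR1 (0.61 ± 0.26 over 4 probe sets) and the coat gene SEC31A (0.59 ± 0.43 over 2). After loess 1 was counted and the median was 0.21, and after quantile normalization 1 and 0.17. Of 38 endosomal genes 7 (18.4%) were counted, with VPS13C (5.96 under SF and 4.90 under GM-CSF), STAM, SNX4 (0.88 ± 0.44 over 2 probe sets) and HGS, the partner of STAM (6.35 under SF and 5.63 under GM-CSF). Lysosome and autophagy genes had 6 of 50 higher and 1 lower, with ATG3 (5.66 under SF and 4.67 under GM-CSF), LAMP2, ATP6AP2 and LAPTM4A (0.81) leading. The proteasome list had 36 of 38 genes above 0, but its median of 0.24 was close to that of genes of like signal (0.25). The list's median signal of 7.85 lay near the lower edge of that bin, 7.82, and the bin below had 0.19. After loess the list median was 0.13 beside 0.02 for all genes. After quantile normalization it was 0.10 beside -0.02. With the deposited values the proteasome list had 5 counted members. PSMD10 (7.31 under SF and 6.36 under GM-CSF), PSMA3 (0.89), PSMD6 (0.64) and the activator PSME4 (0.64 ± 0.25 over 3 probe sets) led them. Of 41 chaperone genes 6 were counted, CCT6A, DNAJA2 (0.77), BAG2 (at least 0.74) and HSPA5 leading, with a median of 0.24 beside 0.19. Of 46 cytoskeleton genes 4 were counted, the actin nucleation genes ARPC3 (0.82), ACTR3 (0.79 ± 0.29 over 3 probe sets) and ARPC1A (0.66), and the actin-binding PFN1 (0.77).

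Metabolic genes were close to genes of like signal. The 58 respiratory chain genes had a median of 0.23 beside 0.25, with UQCRC2, NDUFA5 (0.85), NDUFA10 (0.63) and NDUFS1 (0.62) counted. Glycolysis and hypoxia genes had 3 of 29 counted, PGK1 (0.76 ± 0.25 over 3 probe sets), PKM (8.27 under SF and 7.56 under GM-CSF) and PFKP (0.71), but 0 after loess and 0 after quantile normalization. Of 41 genes of amino acid stress and tRNA charging, SLC38A2 and the chaperone HSPA5 (8.36 under SF and 7.65 under GM-CSF) were higher and CHAC1, which degrades glutathione, was lower (4.97 under SF and 5.65 under GM-CSF). Of 28 cholesterol and fatty acid genes, FASN (0.61) and PDSS1 (0.63) were higher and MVD was lower (-0.65), but 0 were higher after loess or quantile normalization.

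Markers of other lineages were mostly at weak signal. The 19 lymphoid marker genes had a median of -0.15, with 18 below 0 and 0 at 1.5-fold, where genes of like signal had -0.11. Of 12 granulocyte and monocyte markers above the floor, 0 reached 1.5-fold. Of 11 mast cell markers, FCER1A (7.18 under SF and 6.59 under GM-CSF) and the granule proteoglycan SRGN (0.65 ± 0.42 over 2 probe sets) were higher, but 0 were after loess and 0 after quantile normalization, and the list median lay between -0.05 and 0.21 over the settings. Of 10 endothelial markers, the receptor TIE1 (6.40 under SF and 5.33 under GM-CSF), ANGPT2 (0.93) and PLVAP (0.60) were higher and CLDN5 was lower (-0.65, its SF signal below the floor), while CDH5 was at 2.80 on both arrays. Of 24 BCL2 family and caspase genes 3 were counted as higher, BIRC2 (0.67), BCL2L13 (0.66) and PMAIP1 (0.59), with a median of 0.00, and of 37 interferon-stimulated genes 2 were, IFI44 (0.62) and IRF2 (0.61). Of 14 stem and progenitor genes the transcription factor HHEX was counted (0.76 ± 0.30 over 2 probe sets). Of 13 MHC class II genes, 12 megakaryocyte genes, 28 integrin and adhesion genes and 35 RNA polymerase and Mediator genes, 0 reached 1.5-fold. In a bulk sample fewer cells of a type and less RNA per cell cannot be told apart.

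**Figure D3:**
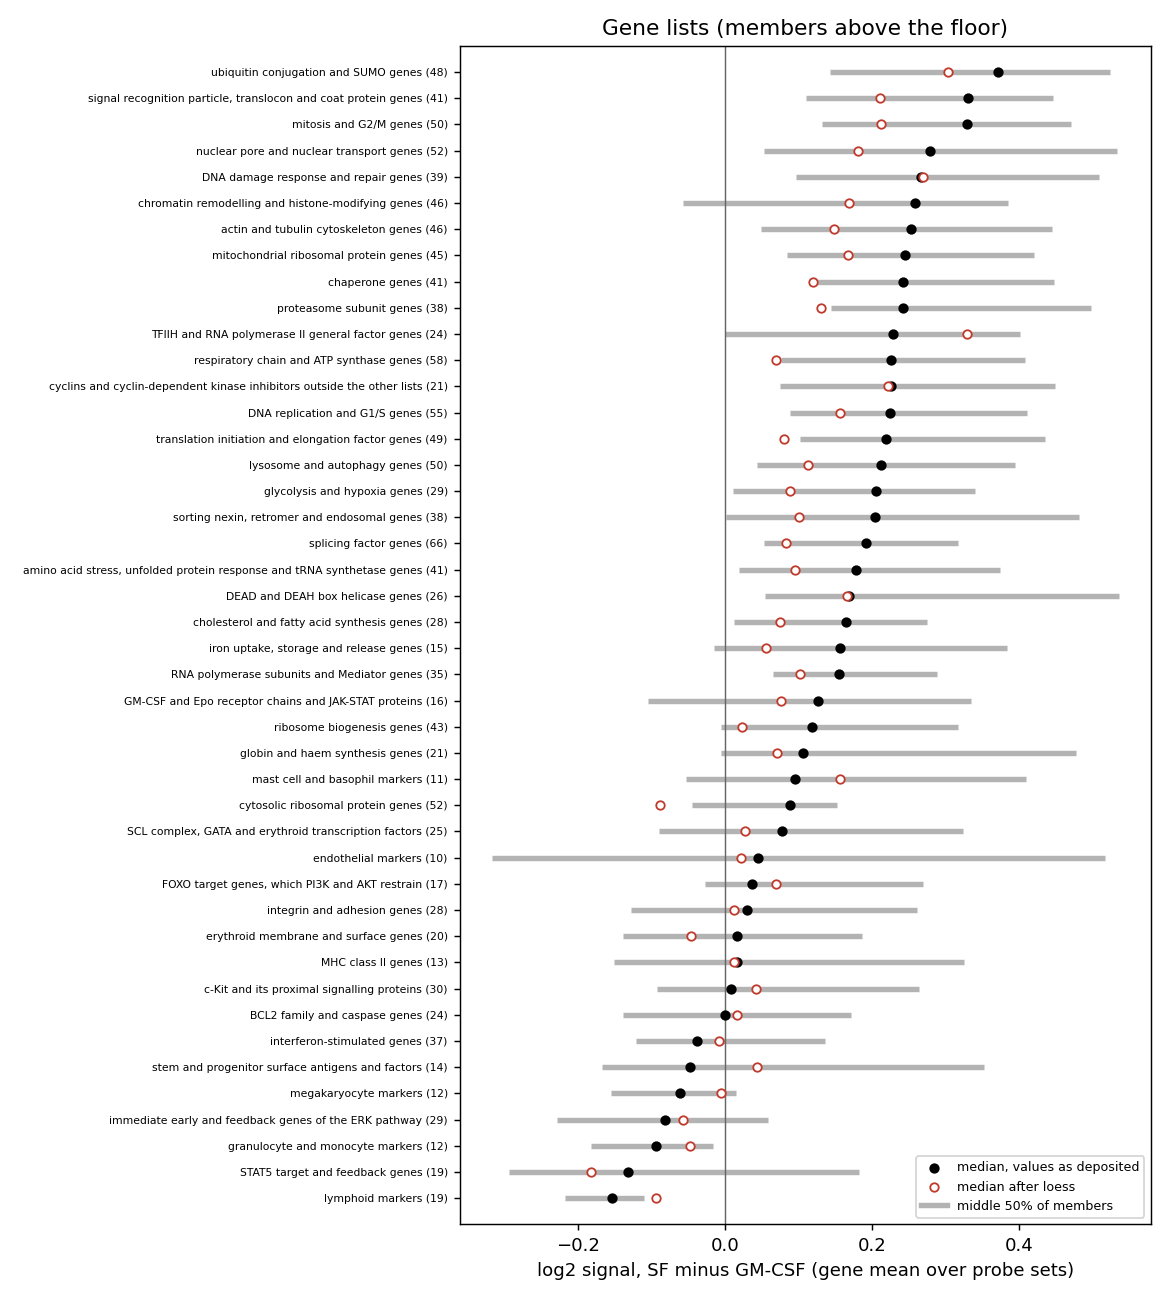
Median log2 difference, SF minus GM-CSF, of 44 gene lists, with the middle 50% of members as grey bars and the number of members above the floor in brackets. Filled circles use the deposited values and open circles the values after loess normalization. With the deposited values ubiquitin conjugation genes have the highest median (0.37) and lymphoid markers the lowest (-0.15), while after loess TFIIH genes are highest (0.33) and STAT5 targets lowest (-0.18).

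The other 3 arrays place these differences in the series. All values against GM-CSF share that 1 array, so they do not repeat each other. For the 61 higher genes the median difference from vector GM-CSF was 0.65 for vector SF and 0.79 for vector Epo. For mutant SCL it was 0.32 under SF and 0.53 under Epo. Over all genes each of these medians was 0.00. The 18S controls averaged 8.22 for vector SF, 9.02 for vector GM-CSF, 8.32 for mutant SCL SF, 7.45 for vector Epo and 7.99 for mutant SCL Epo, so the array with the dimmest controls, vector Epo, also had the largest of these medians, though the order did not match throughout, and the part of the controls in the medians was not tested. For the 28 genes with 1 probe set the medians were 1.10 and 1.40 for vector cells under SF and Epo, and 0.62 and 0.90 for mutant SCL cells under the same factors. PRKDC was highest on the vector SF array, with a mean of 5.54, while it was at the floor on vector GM-CSF and averaged 4.75 to 4.82 on the other arrays. ID2 averaged 7.33 on vector SF, 6.57 on vector GM-CSF, 6.21 on mutant SCL SF, 7.37 on vector Epo and 6.25 on mutant SCL Epo. SLC38A2 averaged 8.21, 7.32, 8.02, 8.74 and 8.22 in the same order, so the vector GM-CSF array was the low one.

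**Figure D4:**
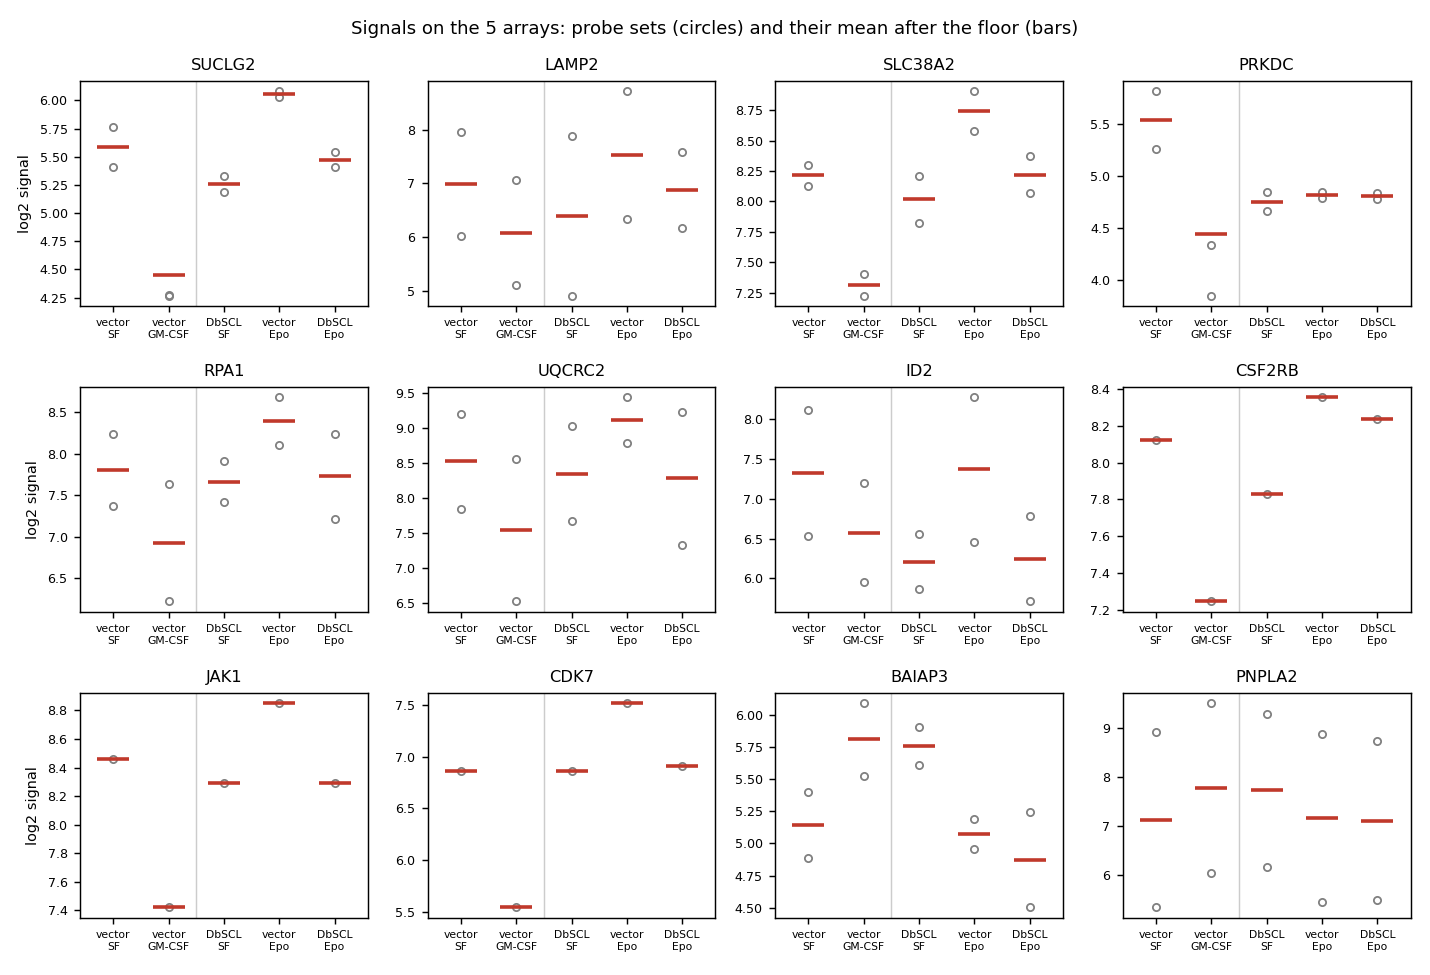
Log2 signals of 12 genes on the 5 arrays, vector SF and vector GM-CSF left of the grey line and the other arrays right of it, each panel with its own axis. Circles are probe sets above the floor on SF or GM-CSF and bars their mean after the floor. For SUCLG2, LAMP2, SLC38A2, PRKDC, RPA1, UQCRC2, CSF2RB, JAK1 and CDK7 the mean on the vector GM-CSF array is the lowest of the 5. PRKDC is also highest on vector SF, and ID2 is low on both mutant SCL arrays. BAIAP3 and PNPLA2 are highest on vector GM-CSF.

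The higher genes were compared with all genes for properties that the comparison did not use. The 61 genes could come only from the 2494 genes with 2 or more probe sets, which were not compared separately. Median signal was 6.77 for the 61 genes and 6.56 for the 465 genes at 1.5-fold. It was 5.88 for all compared genes and 5.53 for the 79 lower genes. The part of signal in the values below was not tested. Gene span, from the RefSeq gene table, had a median of 36.1 kb for the 61 genes and 39.4 kb for the 465 genes at 1.5-fold, against 27.2 kb for the 8551 compared genes with a span and 16.3 kb for the 79 lower genes. In 5 bins of span of nearly equal size, from short to long, the share of genes 1.5-fold or more higher was 2.57%, 4.33%, 6.37%, 7.54% and 6.37%. The first bin ended at 8.69 kb and the last began at 84.3 kb. The median signal in the same bins was 5.97, 6.01, 5.98, 5.93 and 5.56. In the 250 bases before the gene start, a CCAAT match was present in 44.2% of the 52 promoters found for the 61 genes and in 40.3% of 414 promoters of the 465 genes, against 35.8% of 6969 promoters of all compared genes and 33.0% of 27305 promoters in the table. The E-box CAGNTG was present in 40.4%, 36.0%, 37.0% and 42.5% of the same sets, and GATAA in 11.5%, 15.7%, 13.3% and 21.0%. A STAT match, TTCNNNGAA, was found in 3 of 52 promoters (5.77%), 3.62%, 5.75% and 6.78%. The ETS letters CCGGAAG were present in 15.4%, 20.0%, 14.5% and 8.82% of the same sets. The CRE letters TGACG were present in 32.7%, 36.7%, 29.0% and 21.7%. Matches on either strand were counted, and a match is a description of the letters and not of a bound site. Among the runs printed above, WAPL holds 2 CCAAT matches, SLC38A2 1 E-box, SUCLG2 and PNPLA2 1 GATAA match each, and BAIAP3 2 E-box matches.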

How the data were processed

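RNA of TF-1 cells was read on Affymetrix oligonucleotide arrays, 1 array for each of 5 groups, after column purification and labelling by the array maker's small-sample protocol, per the labels' protocols. The deposited table holds log2 signals, 1 per probe set and array. The deposited values run from 2.08 to 13.77, from which a log2 scale was inferred. The summary method, any normalization between arrays and their versions are not given in the sources used here, and such steps can compress weak signals and hide shifts common to most genes. On the SF and GM-CSF arrays 11.5% of the probe sets hold identical values.

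Groups followed the labels. Values were used as deposited, since the medians were 4.91 on the SF and 4.98 on the GM-CSF array. Array controls (68 probe sets) and probe sets with several symbols (1043) or none (2107) were left out. The platform annotation's gene identifiers were matched in the RefSeq gene table for 19053 probe sets, and 0 symbols changed. Differences were SF minus GM-CSF. The number of arrays, 1 per group, limits the precision. The counting rules were tested on simulated data. Genes were named by rule: those counted from 2 or more probe sets (the 20 higher and up to 20 lower with the largest weakest value), the 10 highest with 1 probe set, up to 4 counted members per list, or else up to 2 with the largest difference, and the receptor and feedback genes. All members and lists were chosen with earlier results of these data known. Alternatives were median centring, quantile and loess normalization (span 0.3), no floor, a floor at the 60th percentile, signal above the floor on both arrays, probe sets without _x_at and _s_at endings, other folds and other gene summaries. Python 3.11.15, numpy 2.4.6, pandas 2.3.3 and statsmodels 0.14.6 were used.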

Additional observations from a re-analysis of the deposited data

How the results depend on the processing

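No paired analysis was possible because each group had 1 array and no test was made. The count from 2 or more probe sets, 66 genes with 61 higher, became 111 (109 higher) with median centring, 41 (34 higher, 33 of the 66 shared) after quantile normalization, 41 (38 higher) with a floor at the 60th percentile, 7 (7 higher) without _x_at and _s_at probe sets, 30 (28 higher) with every probe set at 1.5-fold and 0 at 2-fold. Loess gave 46 genes, 33 of them shared with the 66. The 28 genes with 1 probe set at 2-fold became 51 with median centring, and 443 passed at 1.5-fold. The 544 genes at 1.5-fold by the mean became 31 at 2-fold, and the brightest probe set gave 688. The cause of these changes was not tested, except that a stricter fold leaves fewer genes by construction. The share counted from 2 or more probe sets was 2.65% of 2494 genes with the deposited values. It was 2.67% of 1538 with the floor at the 60th percentile and 1.14% of 614 without _x_at and _s_at probe sets. For 26 of the 61 higher genes, with only 2 probe sets above the floor, the rule itself required every probe set to reach 1.5-fold. Of 1291 values of named genes under other settings, 78 moved by more than the pooled SD of 0.26 and 0 changed direction among counted genes. Signal over background limits the genes near the floor, such as SUCLG2 and PRKDC.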
